A study of Mus musculus with 9 samples.

Results

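The guanylate-binding proteins are large GTPases made in quantity when a cell meets interferon, above all interferon gamma. The genes examined here were Gbp2, Gbp3, Gbp5, Gbp6, Gbp7, Gbp8 and Gbp9, found by gene symbol on the deposited liver arrays. A probe set was used only if the platform annotation gave it a single symbol, which left 6 of the 7 genes among 22180 genes in all. Gbp2 was skipped because its 1 annotated probe set is shared with Gbp2b. The set was proposed with earlier results of these data known. Where a gene had several probe sets, 1 was chosen by its mean level across the 9 arrays, taking the highest, without regard to group.

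Livers came from 3 double KO mice, lacking both SMRT and NCoR in the liver, from 3 SMRT KO mice, lacking SMRT there, and from 3 control mice with floxed alleles of both genes and no deletion. SMRT and NCoR are corepressors, proteins that nuclear receptors and other transcription factors recruit to hold genes at a low level. All 9 mice were euthyroid females of a 129SV/B6 mixed background, 7 to 9 weeks old and fed standard chow, and each array held the RNA of 1 mouse. The deletions were specific to the liver, and the sources used here do not name the transgene that drove them. No group lost NCoR alone. The targeted genes were not checked here, since no probe set of the annotation used carries their symbols alone. All 7 hepatocyte markers were measured, with means over the 9 arrays of 10.28 to 13.94 (log2). Array pairs correlated at 0.987 to 0.992 within groups and 0.983 to 0.989 between groups over all probe sets.

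Interferon gamma binds a receptor that signals through the kinases Jak1 and Jak2. The response reaches genes through short DNA elements, the gamma-activated site (GAS) and the interferon-stimulated response element (ISRE), and Irf1 is among the factors that bind the ISRE. The proteins made in response coat the vacuoles of intracellular parasites and the surface of cytosolic bacteria, together with the immunity-related GTPases and the autophagy conjugation machinery, and they promote inflammasome activation. In liver they are made by Kupffer cells, the resident macrophages, and also by endothelial cells and hepatocytes.

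In mouse these genes lie in clusters. RefSeq (GRCm38.p6) places Gbp2, Gbp3, Gbp5 and Gbp7 on chromosome 3 with Gbp2b, and Gbp6, Gbp8 and Gbp9 on chromosome 5 with Gbp4, Gbp10 and Gbp11. RefSeq promoter sequences were found for 5 of these 11 genes, 4 of them among the 7 examined and all on chromosome 3. The 250 bases before the start site are shown for the 3 measured genes with such a sequence. Each was searched for the cores of the ISRE and the GAS. Capitals mark each match to the ISRE core, which is GAAA, any 2 bases and GAAA, searched on both strands, or to the GAS core TTCNNNGAA, which reads the same on both strands.
Gbp5, chr3:142496684-142496933, strand +: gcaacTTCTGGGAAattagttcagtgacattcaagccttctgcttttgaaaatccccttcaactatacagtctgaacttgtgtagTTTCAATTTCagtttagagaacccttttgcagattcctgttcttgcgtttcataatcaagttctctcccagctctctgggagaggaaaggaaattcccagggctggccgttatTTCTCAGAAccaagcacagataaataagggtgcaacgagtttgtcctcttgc
Gbp7, chr3:142530086-142530335, strand +: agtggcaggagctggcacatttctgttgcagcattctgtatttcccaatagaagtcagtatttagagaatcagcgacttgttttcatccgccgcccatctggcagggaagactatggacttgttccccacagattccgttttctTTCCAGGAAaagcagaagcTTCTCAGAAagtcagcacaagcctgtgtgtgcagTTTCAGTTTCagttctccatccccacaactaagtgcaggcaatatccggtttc
Gbp3, chr3:142559794-142560043, strand +: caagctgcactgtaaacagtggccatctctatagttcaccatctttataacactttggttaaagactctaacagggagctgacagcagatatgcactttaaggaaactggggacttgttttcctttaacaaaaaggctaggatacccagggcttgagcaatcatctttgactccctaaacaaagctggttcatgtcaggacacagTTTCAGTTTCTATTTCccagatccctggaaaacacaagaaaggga
The Gbp5 and Gbp7 sequences each held 1 ISRE match and 2 GAS matches. Their ISRE matches began 165 and 53 bases before the start, and the GAS match nearest the start read TTCTCAGAA in both. Gbp3 held 2 overlapping ISRE matches, 45 and 39 bases before its start, and 0 GAS matches. A second start site of Gbp3 held 0 of either. Over all 5 genes with a sequence, 5 held an ISRE match and 2 a GAS match. Among 32851 promoters of the same length, 2.98% held the ISRE core and 7.02% the GAS core. These shares count promoters, of which a gene can have several, while the counts above are of genes. The 5 genes are also relatives on chromosome 3, so they are not separate draws. A match is a description of the reference sequence, not a measured site.

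None of the 6 measured genes passed an adjusted p of 0.05 by limma in any of the 3 comparisons. In SMRT KO against control livers 0 of 6 were called, where 0.00451% of all genes were called. In double KO against control livers 0 of 6 were called, against 0.843% of all genes. In double KO against SMRT KO livers 0 of 6 were called, against 1.19% of all genes. At an unadjusted p under 0.05 limma counted 3, 1 and 2 of the 6 in these comparisons, taken in that order, where it counted 6%, 10.8% and 10.5% of all genes. The 3 differed in direction, with Gbp3 lower and Gbp6 and Gbp9 higher in SMRT KO livers. The 1 was Gbp7, lower in double KO livers, and the 2 were Gbp6 and Gbp9, lower in double KO livers.

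As a list, the 6 genes had a median log2 fold change of 0.22 in SMRT KO against control livers, with 4 above 0 and 2 below. The median was 0.0037 in double KO against control livers, with 3 above 0 and 3 below. It was -0.20 in double KO against SMRT KO livers, with 5 below 0. Over all genes these medians were 0.00087, 0.0036 and 0.0017. Any 2 of the comparisons share 3 mice, so the 3 medians are not separate measurements. The medians of 0.22 and -0.20 each lie between the values of Gbp5 and Gbp6, the dimmest of the 6 genes. Gbp5 had a mean of 5.24, above 87.3% of olfactory and vomeronasal receptor genes, taken here as background. Gbp6 had a mean of 3.60, above 39.5% of them. The means of Gbp5 and Gbp6 lay under 5.96, the 95th percentile of these receptor genes. Neither gene is therefore shown to be clearly above background.

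**Figure D1:**
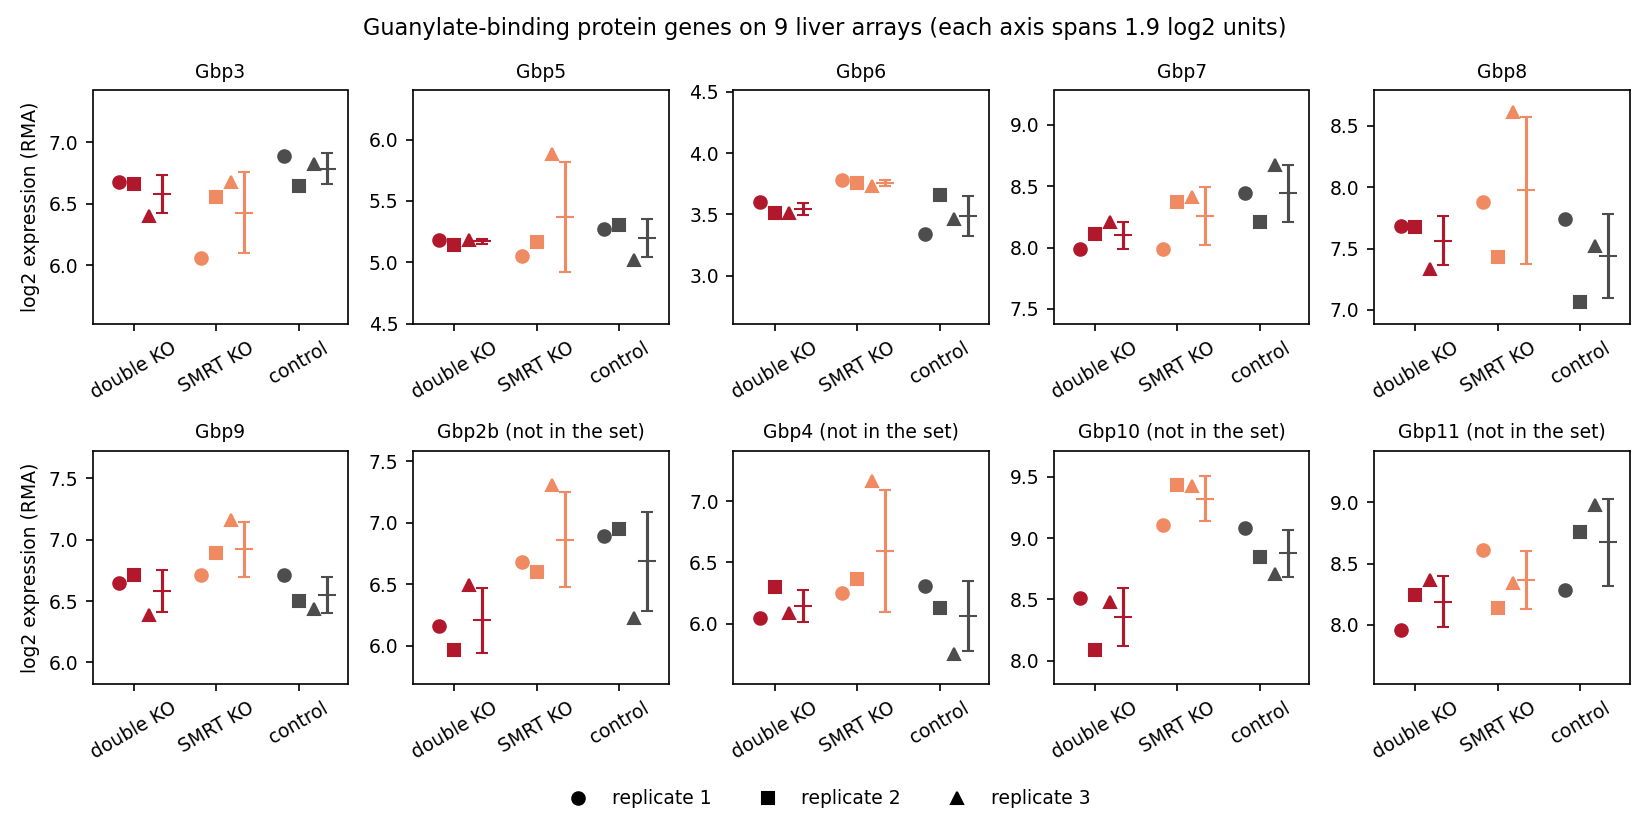
Log2 expression (RMA) of 10 guanylate-binding protein genes in 3 double KO, 3 SMRT KO and 3 control livers, 1 marker per mouse and its shape the replicate number, with the group mean and SD beside each group. The 4 genes titled as not in the set are relatives measured on the same arrays; every panel spans the same height, SMRT KO replicate 3 is the highest array for Gbp5, Gbp8, Gbp9, Gbp2b and Gbp4, and the Gbp10 groups do not overlap.

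Gbp5 promotes assembly of the NLRP3 inflammasome in macrophages. It had log2 values of 5.18, 5.14 and 5.18 in double KO livers, 5.05, 5.17 and 5.88 in SMRT KO livers, and 5.27, 5.30 and 5.02 in control livers. Of the 9 livers 8 lay within 5.02 to 5.30, and SMRT KO replicate 3 stood above them, so the groups overlapped. The log2 fold change was 0.17 in SMRT KO against control livers (standard error 0.186, limma adjusted p = 0.938), and it was -0.09 without SMRT KO replicate 3. In double KO against control livers it was -0.03 (adjusted p = 0.979).

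Gbp7 takes part in oxidative defence of phagocytes. It had log2 values of 7.98, 8.11 and 8.21 in double KO livers, 7.99, 8.37 and 8.41 in SMRT KO livers, and 8.45, 8.21 and 8.68 in control livers. All double KO values lay below all control values, narrowly at the nearest pair, and the SMRT KO values overlapped both. Groups failed to overlap for 1 of the 6 genes in this comparison, against 15% of all genes. The log2 fold change in double KO against control livers was -0.34 (standard error 0.142, 95% interval -0.66 to -0.02), and Gbp7 did not pass (limma adjusted p = 0.421). Without control replicate 3 it was -0.23.

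Gbp3, Gbp6 and Gbp9 belong to the members that gather at the vacuole of the parasite Toxoplasma in mouse cells. Gbp3 had log2 values of 6.67, 6.66 and 6.40 in double KO livers, 6.05, 6.56 and 6.67 in SMRT KO livers, and 6.89, 6.64 and 6.82 in control livers. The groups overlapped, and SMRT KO replicate 1 was the lowest of the 9. Its log2 fold change was -0.36 in SMRT KO against control livers (standard error 0.154, limma adjusted p = 0.83) and -0.17 without SMRT KO replicate 1.

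Gbp9 had log2 values of 6.65, 6.71 and 6.39 in double KO livers, 6.71, 6.89 and 7.16 in SMRT KO livers, and 6.71, 6.50 and 6.43 in control livers. SMRT KO replicates 2 and 3 were above every other liver, while SMRT KO replicate 1 had the value of the highest control. The log2 fold change was 0.37 in SMRT KO against control livers (standard error 0.131, 95% interval 0.08 to 0.67, limma adjusted p = 0.775) and -0.34 in double KO against SMRT KO livers (adjusted p = 0.395). Over the 17 alternatives the first ran from 0.25 to 0.48 and the second from -0.44 to -0.22, each nearest 0 without SMRT KO replicate 3.

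Gbp6 had log2 values of 3.60, 3.51 and 3.51 in double KO livers, 3.78, 3.75 and 3.73 in SMRT KO livers, and 3.34, 3.66 and 3.46 in control livers. The 3 SMRT KO values were above all 6 others, and the values of the 2 other groups overlapped. Groups failed to overlap for 1 of the 6 genes in SMRT KO against control livers, against 8.16% of all genes, and for 1 of 6 in double KO against SMRT KO livers, against 13.8%. The log2 fold changes were 0.27 (standard error 0.0838, limma adjusted p = 0.724) and -0.21 (adjusted p = 0.404). Olfactory and vomeronasal receptor genes, which liver is not known to use, had array medians of 3.73 to 4.13, so Gbp6 is not shown to be above background. Gbp6 and Gbp10 are close paralogs, and how well their probes tell the transcripts apart was not tested.

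Gbp8 had the widest range of the 6. It had log2 values of 7.68, 7.68 and 7.33 in double KO livers, 7.88, 7.43 and 8.61 in SMRT KO livers, and 7.74, 7.06 and 7.52 in control livers. SMRT KO replicate 3 was again the highest, and the groups overlapped. In SMRT KO against control livers the log2 fold change was 0.53 (standard error 0.276, 95% interval -0.09 to 1.15, limma adjusted p = 0.865), and it was 0.21 without SMRT KO replicate 3, 0.80 without SMRT KO replicate 2 and 0.34 without control replicate 2. The interval spans 0 and reaches past 1 on the log2 scale.

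Gbp10, a relative outside the 7 genes, had a lower level in double KO than in SMRT KO livers. It had log2 values of 8.51, 8.09 and 8.48 in double KO livers, 9.11, 9.43 and 9.43 in SMRT KO livers, and 9.08, 8.84 and 8.71 in control livers. The 3 groups did not overlap, with control livers in the middle. Gbp10 fell 1.95-fold in double KO against SMRT KO livers, by 0.96 on the log2 scale (standard error 0.144, 95% interval -1.29 to -0.64, limma adjusted p = 0.0148). It no longer passed when SMRT KO replicate 2 was left out (limma adjusted p = 0.0551), nor on leaving out SMRT KO replicate 3 (0.0584) or double KO replicate 2 (0.0531), nor when the control mice were dropped from the model (0.0504), and the adjusted p lay between 0.011 and 0.0584 in the 17 alternatives run. The log2 fold change was -0.52 in double KO against control livers (adjusted p = 0.199) and 0.44 in SMRT KO against control livers (adjusted p = 0.75), and neither passed.

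The other 3 relatives did not pass in any comparison by limma. Gbp2b, which encodes mouse Gbp1, had log2 values of 6.16, 5.97 and 6.49 in double KO livers, 6.68, 6.60 and 7.31 in SMRT KO livers, and 6.89, 6.95 and 6.22 in control livers. Its double KO values lay below all SMRT KO values, and the log2 fold change was -0.66 (adjusted p = 0.346, standard error 0.239), or -0.44 without SMRT KO replicate 3. Gbp4 had 6.05, 6.30 and 6.09 in double KO livers, 6.25, 6.36 and 7.16 in SMRT KO livers, and 6.31, 6.13 and 5.75 in control livers, with log2 fold changes of -0.45 in double KO against SMRT KO livers (adjusted p = 0.556) and 0.53 in SMRT KO against control livers (adjusted p = 0.829). Without SMRT KO replicate 3 these Gbp4 values were -0.16 and 0.24. Gbp11, annotated by RefSeq as a transcribed pseudogene, had a log2 fold change of -0.49 in double KO against control livers (adjusted p = 0.38). Of the 4 relatives 1 was called, in double KO against SMRT KO livers and downward, where 0.437% of all genes were called lower.

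**Figure D2:**
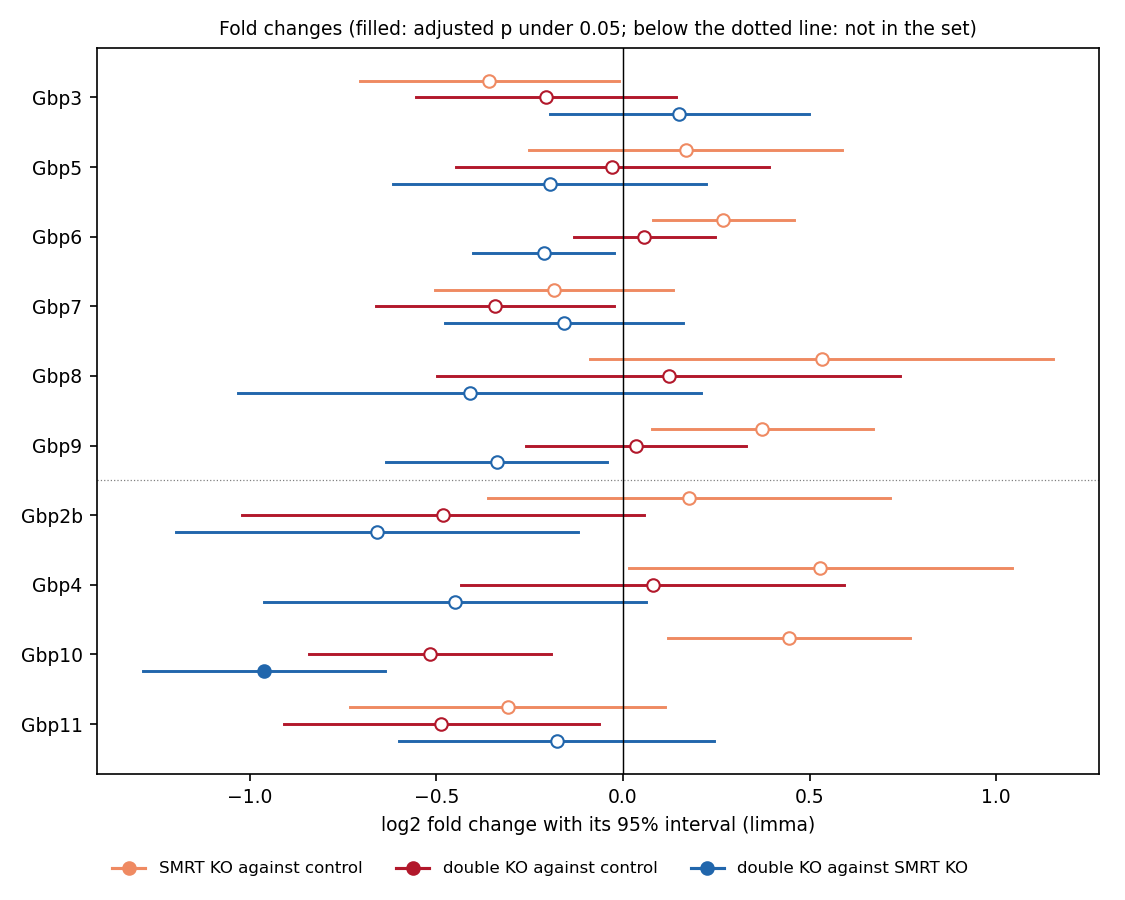
Log2 fold changes (horizontal axis) with 95% intervals from limma for the 6 measured genes above the dotted line and 4 relatives below it, in 3 colours for the 3 comparisons. The 1 filled point, Gbp10 in double KO against SMRT KO livers at -0.96, is the 1 estimate with an adjusted p under 0.05; the intervals are not adjusted for the number of genes.

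SMRT KO replicate 3 was the highest of the 9 livers for 3 of the 6 genes and for 5 of all 10 measured genes of the family, where it was the highest for 12.6% of all genes. The mean of the 6 genes, each centred on its own mean over the 9 livers, was -0.05, -0.04 and -0.17 in double KO livers, -0.10, 0.02 and 0.40 in SMRT KO livers, and 0.06, -0.11 and -0.02 in control livers. The other 8 livers thus lay between -0.17 and 0.06. Without SMRT KO replicate 3 the median log2 fold change of the list was 0.06 in SMRT KO against control livers and -0.09 in double KO against SMRT KO livers.

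Over the 9 arrays, Pearson correlations between their 15 pairs ran from -0.63 (Gbp3 and Gbp6) to 0.79 (Gbp8 and Gbp9), with a median of 0.23, and 4 pairs exceeded 0.5. Gbp5, Gbp8 and Gbp9 correlated with each other at 0.68 to 0.79. Gbp3 and Gbp7, both on chromosome 3, correlated at 0.62. Without SMRT KO replicate 3 the median over the pairs was -0.12 and 1 pair, Gbp3 and Gbp7 at 0.61, exceeded 0.5. These correlations are descriptions over 9 arrays that share their normalization, from 3 groups of mice.

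The array mean of macrophage markers was also highest in SMRT KO replicate 3. So were the array means of T and NK cell, neutrophil, endothelial and stellate cell markers. B cell, dendritic cell, cholangiocyte and hepatocyte markers had their highest array mean in other livers. All 11 Kupffer cell and macrophage markers had log2 fold changes above 0 in SMRT KO against control livers (median 0.24) and below 0 in double KO against SMRT KO livers (median -0.23), and limma called 0 of 11 in either. At an unadjusted p under 0.05 it counted 5 of 11 in each, against 6% and 10.5% of all genes, and groups did not overlap for 4 of 11 in each, against 8.16% and 13.8% of all genes. Their mean per array ran from 8.36 to 8.54 in double KO livers, 8.57 to 8.82 in SMRT KO livers and 8.36 to 8.59 in control livers, and SMRT KO replicate 3 was the highest for 8 of the 11 markers. In bulk liver, more cells of a type and more RNA per cell cannot be told apart. The part of macrophages in the levels of the guanylate-binding protein genes was not tested. T and NK cell markers had array means of 5.55 to 5.66 in double KO, 5.63 to 5.70 in SMRT KO and 5.51 to 5.66 in control livers, and the 8 endothelial markers 9.11 to 9.40, 9.24 to 9.42 and 9.10 to 9.21. Of the 12 T and NK cell markers, 11 lay above 0 in SMRT KO against control livers and 10 below 0 in double KO against SMRT KO livers. Of the 8 endothelial markers, 7 lay above 0 and 6 below 0 in these comparisons, so the directions were not particular to macrophage markers.

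Markers of stellate cells and hepatocytes had lower array means in double KO livers than in any other liver. The 6 stellate cell markers had array means of 8.65 to 9.04 in double KO, 9.18 to 9.50 in SMRT KO and 9.10 to 9.41 in control livers. Lrat, the retinol-esterifying enzyme of stellate cells, was the 1 called, with log2 fold changes of -1.80 in double KO against control livers (limma adjusted p = 0.000397) and -1.91 in double KO against SMRT KO livers (adjusted p = 0.000391). Over all genes, 0.843% were called with double KO set against control and 1.19% with double KO set against SMRT KO. In double KO against control livers Rgs5 had -0.77 (adjusted p = 0.164), and Des, Reln, Dcn and Colec11 had -0.19, -0.19, -0.13 and 0.06. The lower stellate cell mean thus came mainly from Lrat and Rgs5. The 7 hepatocyte markers had array means of 12.50 to 12.55 in double KO, 12.64 to 12.72 in SMRT KO and 12.68 to 12.75 in control livers. Serpina1a, a secreted protease inhibitor, was the 1 called, with a log2 fold change of -0.47 in double KO against control livers (adjusted p = 0.0251), and it lost the call in 7 of 17 alternatives, with adjusted p up to 0.116. With double KO set against SMRT KO, groups did not overlap for 4 of 7 hepatocyte markers, against 13.8% of all genes. Their part in the levels of Gbp10 and its relatives was not tested.

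**Figure D3:**
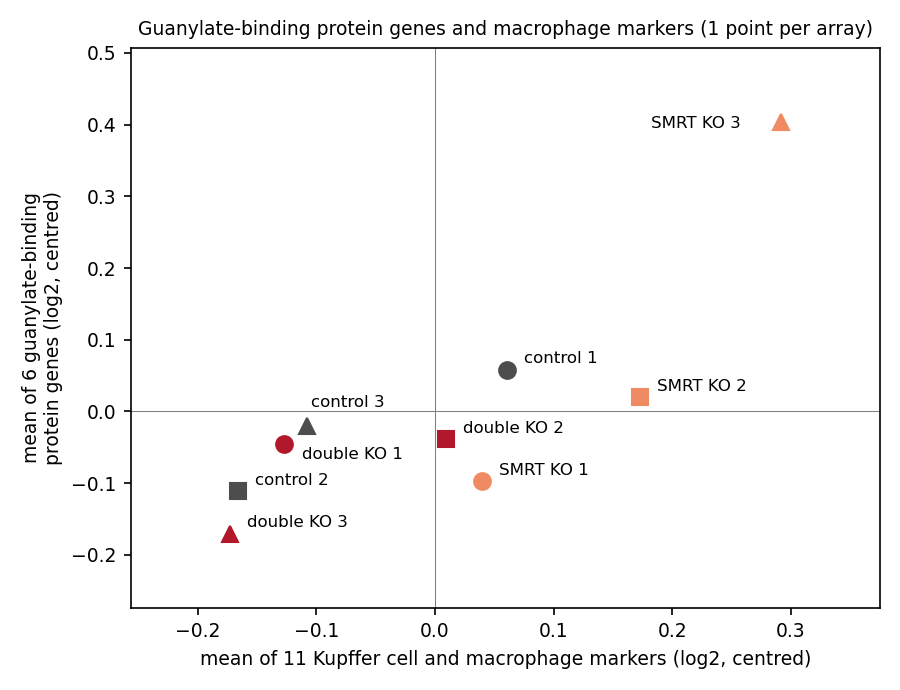
Mean of the 6 guanylate-binding protein genes (vertical axis) against the mean of 11 Kupffer cell and macrophage markers (horizontal axis), both in log2 units with every gene centred on its mean over the 9 arrays, 1 point per liver. SMRT KO replicate 3 stands highest on both axes, at 0.29 and 0.40, and the other 8 livers lie between -0.17 and 0.06 on the vertical axis.

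The 10 genes whose levels followed the mean of the 6 most closely, among 12918 genes with a mean of at least 6, had Pearson correlations of 0.944 to 0.988 over the 9 arrays. They were, in order, Slc11a1, Amotl2, H2-DMa, Rassf2, Pld4, Crlf2, Prelid2, Cphx1, Fcgr4 and Usp31. Slc11a1 encodes a metal transporter of the phagosome, H2-DMa a chaperone that loads peptides on MHC class II, Pld4 an endolysosomal nuclease and Fcgr4 an Fc receptor of myeloid cells. Amotl2 encodes a scaffold of the angiomotin family, Rassf2 a Ras-association domain protein, Crlf2 a chain of the TSLP receptor, Cphx1 a homeobox protein and Usp31 a deubiquitinase. Slc11a1 had log2 values of 7.57, 7.62 and 7.39 in double KO livers, 7.59, 7.66 and 8.21 in SMRT KO livers, and 7.76, 7.55 and 7.62 in control livers. Prelid2 had 8.56 in SMRT KO replicate 3 and 5.59 to 6.24 in the other 8 livers. That liver was the highest for each of the 10 genes. Without it the 10 correlations ran from 0.649 to 0.934 over 8 arrays, and without it and double KO replicate 3, the liver next farthest from the median, from 0.465 to 0.902 over 7 arrays. These genes were picked for this likeness, so their correlations are a description.

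Of 11 interferons and inducing cytokines, 6 interferon receptor genes, 9 signal transducers and 6 signal inhibitors, 0 were called by limma in any comparison, and at an unadjusted p under 0.05 it counted 0, 0, 0 and 0 in SMRT KO against control livers 0, 1, 1 and 1 in double KO against control livers, and 0, 2, 1 and 1 in double KO against SMRT KO livers. The shares of all genes were 6%, 10.8% and 10.5% at that threshold and 0.00451%, 0.843% and 1.19% for called genes. Ifng, the gene of interferon gamma itself, had group means of 5.60 in double KO, 5.62 in SMRT KO and 5.62 in control livers. Its mean over the 9 arrays, 5.61, lay under 5.96, the 95th percentile of the olfactory and vomeronasal receptor genes. Ifng is therefore not shown to be clearly above background, and its level values say little about interferon gamma. Irf1, the transcription factor that binds the ISRE, had group means of 8.20 in double KO, 7.99 in SMRT KO and 8.09 in control livers, and a log2 fold change of -0.10 in SMRT KO against control livers (adjusted p = 0.948). Socs1, the inhibitor of Jak kinases, had 0.01 in that comparison (adjusted p = 0.994).

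Among the receptors, the log2 fold changes in SMRT KO against control livers ran from -0.06 (Ifnar1) to 0.13 (Ifngr1, the ligand-binding chain for interferon gamma). Ifnar2, a chain of the type I interferon receptor, had 0.30 in double KO against control livers (adjusted p = 0.189). Among the transducers they ran from -0.10 (Irf1) to 0.13 (Irf7), and among the inhibitors from -0.11 (Usp18, which removes ISG15 and restrains the type I receptor) to 0.12 (Pias1). Among the cytokines, the extremes were Il12a at -0.11 and Ifnl3 at 0.19.

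The immunity-related GTPases, partners of the guanylate-binding proteins at parasite vacuoles, were listed with the antiviral GTPases Mx1 and Mx2, and 7 of the 11 listed genes were measured. None was called by limma, and 1, 1 and 3 of 7 had an unadjusted p under 0.05 in the 3 comparisons, in the order used above, against 6%, 10.8% and 10.5% of all genes. Irgm2 had log2 values of 8.98, 8.87 and 9.06 in double KO livers, 9.27, 9.70 and 10.1 in SMRT KO livers, and 8.91, 9.10 and 9.33 in control livers. Its double KO values were all below its SMRT KO values, with SMRT KO replicate 3 highest. The log2 fold change was -0.74 in double KO against SMRT KO livers (standard error 0.193, adjusted p = 0.148) and 0.59 in SMRT KO against control livers (adjusted p = 0.75). Irgm2 passed in the first of these in 1 of 17 alternatives, without SMRT KO replicate 1 (adjusted p = 0.0474, up to 0.378 in the others), and the second was 0.37 without SMRT KO replicate 3. Igtp, also known as Irgm3, had the lowest fold change of the list in SMRT KO against control livers, -0.23 (adjusted p = 0.928). Iigp1, a GTPase of the same family named here after its values were seen, had log2 values of 11.25, 11.26 and 11.09 in double KO livers, 11.52, 11.48 and 11.55 in SMRT KO livers, and 11.49, 11.64 and 11.53 in control livers. Its double KO values were below all 6 others. Iigp1 had a log2 fold change of -0.35 in double KO against control livers (adjusted p = 0.0652, from 0.0448 to 0.172 over 17 alternatives, of which 2 passed) and -0.32 in double KO against SMRT KO livers (adjusted p = 0.0818).

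Among 22 measured type I interferon-stimulated genes, 2 were called by limma, both higher in double KO than in SMRT KO livers, where 0.748% of all genes were called higher. Xaf1, which encodes an antagonist of the apoptosis inhibitor XIAP, had log2 values of 8.52, 8.64 and 8.55 in double KO livers, 7.89, 8.05 and 7.996 in SMRT KO livers, and 8.60, 8.43 and 8.65 in control livers. Its SMRT KO values were below all 6 others. Xaf1 rose 1.51-fold in double KO against SMRT KO livers (log2 fold change 0.59, standard error 0.0785, adjusted p = 0.00809) and held its call in all 17 alternatives, with adjusted p up to 0.0482. Against control its log2 fold change was -0.58 in SMRT KO livers (adjusted p = 0.0924, and 0.0331 without control replicate 2, the 1 alternative of 17 that passed) and 0.01 in double KO livers (adjusted p = 0.976). 

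Bst2, which encodes tetherin, a protein that holds budding viruses at the cell surface, had log2 values of 9.15, 8.88 and 8.85 in double KO livers, 8.32, 8.56 and 8.43 in SMRT KO livers, and 8.55, 8.67 and 8.59 in control livers. Every double KO value was above every other. Bst2 rose 1.44-fold in double KO against SMRT KO livers (log2 fold change 0.52, standard error 0.0956, limma adjusted p = 0.0366). Its call was lost in 11 of 17 alternatives, with adjusted p up to 0.129. The median log2 fold change of the 22 genes was 0.04, -0.0087 and -0.0016 in the 3 comparisons, in the order used above.

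Genes that answer mainly to interferon gamma, and those of antigen presentation, pyroptosis and autophagy conjugation, held 0 called members in any comparison by limma. Of 9 interferon gamma-induced genes the median log2 fold change was 0.08 in SMRT KO against control livers, from -0.04 (Nos2, the inducible nitric oxide synthase) to 0.43 (Cxcl9, a T cell chemokine; adjusted p = 0.826). Of 15 antigen processing and presentation genes the median was 0.0062, from -0.22 (Psmb8, an immunoproteasome subunit) to 0.41 (H2-Aa, an MHC class II chain). Of 7 inflammasome and pyroptosis genes it was 0.08, from -0.32 (Gsdmd, the pore-forming gasdermin D) to 0.31 (Il1b). Of 7 autophagy conjugation genes, which deliver the GTPases to vacuoles, it was 0.0057, from -0.11 (Atg5) to 0.09 (Atg12). At an unadjusted p under 0.05 limma counted 1, 1, 2 and 0 of these lists' genes in that comparison, against 6% of all genes. It counted 0, 1, 0 and 0 with double KO set against control, against 10.8% of all genes, and 0, 2, 1 and 0 with double KO set against SMRT KO, against 10.5%. SMRT KO replicate 3 was the highest liver for 6 of 9 interferon gamma-induced genes and 6 of 15 antigen genes, against 12.6% of all genes. In the lists above it was the highest for 6 of 9 signal transducers, 7 of 22 type I genes and 3 of 7 immunity-related and antiviral GTPases. The counts were 2 of 6 receptors, 1 of 6 inhibitors and 0 of 11 interferons and inducing cytokines for the same liver. SMRT KO replicate 3 was the highest for 1 of 7 genes in each of the pyroptosis and autophagy lists.

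**Figure D4:**
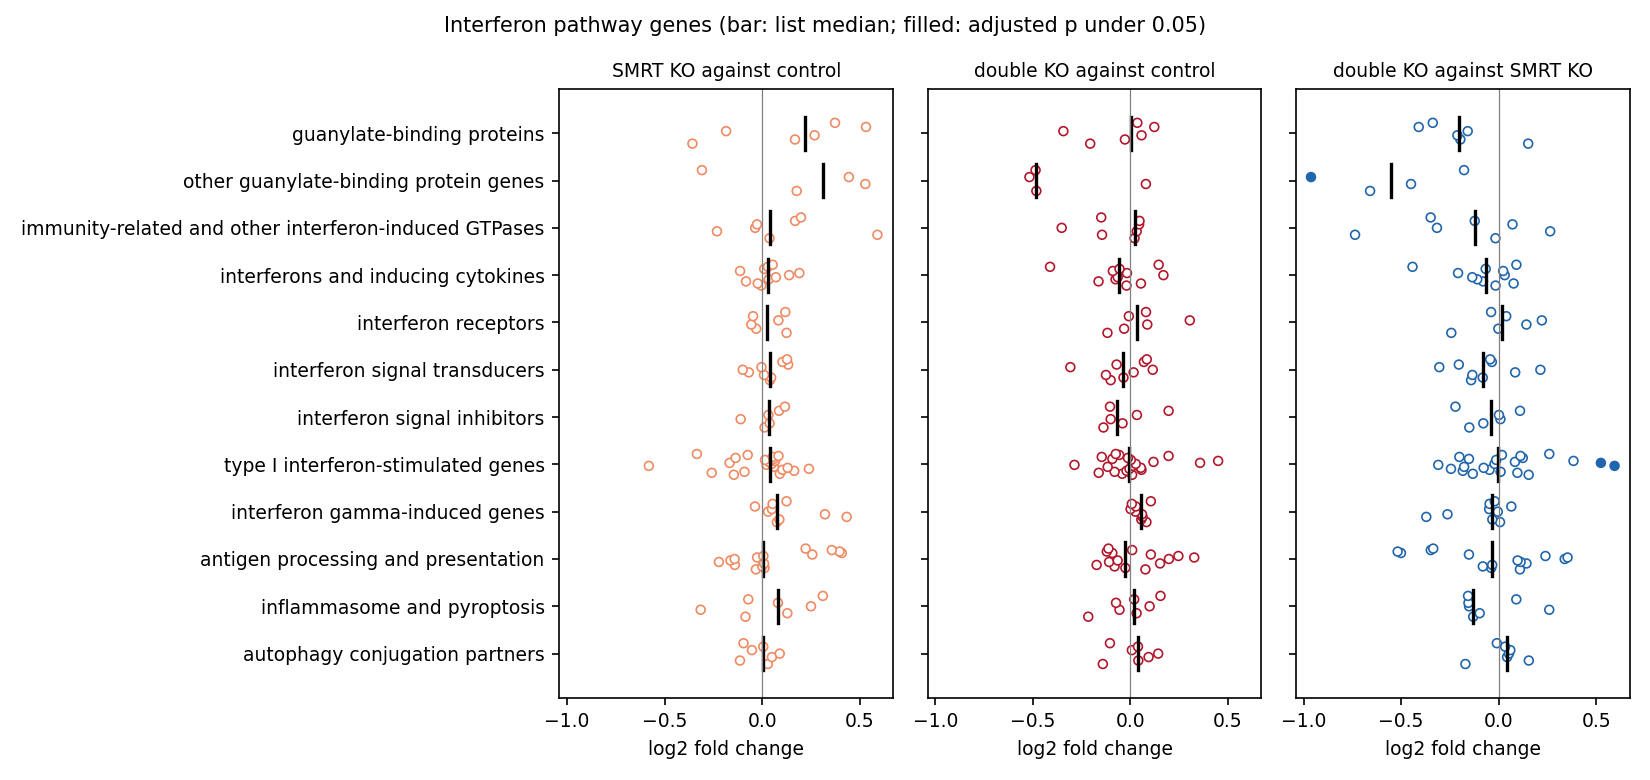
Log2 fold changes (horizontal axis) of the genes of 12 interferon pathway lists in 3 comparisons, 1 circle per gene, with a black bar at each list's median. Filled circles mark an adjusted p under 0.05, namely Gbp10, Xaf1 and Bst2 in double KO against SMRT KO livers; the medians of the guanylate-binding proteins were 0.22, 0.0037 and -0.20.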

How the data were processed

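Liver RNA (200 ng of total RNA per mouse) was labelled with biotin and measured on 9 Affymetrix whole-transcript arrays, 1 per mouse, and each array was put in its group by its sample title. Values used are the log2 signals that the authors deposited for every probe set. RMA is the tool that the submitters' processing notes name, with a version not given in the sources used here. RMA subtracts background, quantile-normalizes the arrays and summarises probes, so a shift common to most genes is removed. Precision is limited by the number of arrays. Of 41345 probe sets the platform annotation gave a single symbol to 23521 and several to 1814, and it did not list 16010. The probe set with the highest mean was kept for each gene, giving 22180 genes with no filter on level.

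A single linear model over all 9 arrays, with no block, was fitted by limma 3.58.1 (R 4.3.3; moderated, two-sided). Benjamini-Hochberg adjustment ran over all genes within each comparison, and genes below 0.05 were called. Every adjusted p given is from limma. The steps were also run on simulated data, whose outcome is not given here. That simulation drew independent noise for each gene, so it holds no shift that many genes share in 1 liver. Same-numbered mice correlated at -0.0845 to 0.117 in their deviations from the group means, with 1 of 9 pairs over 0.1, so the replicate numbers were not used to pair mice.

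The genes examined, the interferon pathway lists and the marker lists were chosen with earlier results of these data known. Named were all measured guanylate-binding protein genes, Ifng, Irf1 and Socs1, and of each pathway list every called gene or, where fewer than 2 were called, the genes with the highest and lowest fold change in SMRT KO against control livers, and the 10 genes most correlated with the mean of the 6. Ifnar2, Iigp1, Lrat, Rgs5, Des, Reln, Dcn, Colec11 and Serpina1a were named after their values were seen. The alternatives left out each mouse, added a replicate block, fitted only the groups compared, used an intensity trend or robust eBayes, dropped genes with a mean under 5, averaged probe sets, applied cyclic loess or centred the arrays. The alternatives for Gbp2b, Gbp4, Gbp10, Gbp11, Irgm2, Iigp1, Xaf1, Bst2, Lrat and Serpina1a were added after the data were seen.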

Additional observations from a re-analysis of the deposited data

How the results depend on the processing

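Across 303 refits of the 6 genes in 3 comparisons, 0 gave an adjusted p under 0.05 by limma (smallest 0.215) and 294 kept the direction. Many of these refits could change the adjusted p of these genes but not their fold change. Such refits left out a mouse of the group not compared, added the block or fitted only the groups compared. Others changed the eBayes step, dropped dim genes or averaged probe sets, of which each of the 6 genes had 1. Only leaving out a mouse of a compared group, cyclic loess and centring could turn a direction. No fit of Gbp6 could be made with genes of a mean under 5 left out. Directions that turned among the guanylate-binding protein genes and Xaf1, Bst2, Irgm2, Iigp1, Lrat and Serpina1a did so only when 1 mouse was left out. In these fits the log2 fold change ran from -0.088 to 0.32 for Gbp5, -0.055 to 0.31 for Gbp2b and -0.070 to 0.0083 for Iigp1 in SMRT KO against control livers, and from -0.035 to 0.27 for Gbp3 and -0.35 to 0.060 for Gbp5 in double KO against SMRT KO livers. With double KO set against control it ran from -0.12 to 0.024 for Gbp5, -0.018 to 0.14 for Gbp6, -0.066 to 0.27 for Gbp8, -0.030 to 0.13 for Gbp9, -0.076 to 0.20 for Gbp4 and -0.052 to 0.058 for Xaf1. The list medians ran over all alternatives from 0.063 to 0.29 for SMRT KO and -0.069 to 0.019 for double KO livers, each against control, and from -0.32 to -0.086 between the knockouts.

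Called genes over the whole table depended more on the mice. Leaving out 1 mouse gave 0 to 23 genes in SMRT KO against control livers (1 with all), 61 to 179 in double KO against control livers (187) and 101 to 234 in double KO against SMRT KO livers (263), from fits with fewer mice. Fitting only the groups compared gave 0, 109 and 124. With the replicate block 2 genes were called in SMRT KO against control livers, and 0 of the 6 genes in any comparison. The cause of these shifts was not tested.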
